A study of Mus musculus with 9 samples.

Results

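The genes described here encode the water channel, potassium channel, junction proteins and membrane scaffold of the astrocyte endfoot, the process with which an astrocyte covers a blood vessel. They are Aqp4, Kcnj10, Gja1, Gjb6, Mlc1, Hepacam, Dag1, Dtna and Dmd, chosen by gene symbol, and all 9 were found among the 33586 entries of the deposited expression table. They were measured by RNA sequencing in 9 libraries of mouse brain, 3 for each of the groups named control, experimental and intervention. The study injected collagenase, an enzyme that digests the vessel wall, to cause an intracerebral haemorrhage, and took tissue from around the haematoma. Its title names a tetrahedral nucleic acid nanomaterial loaded with the neuronal microRNA miR-124 as a therapy. The sources used here do not give what each group received, the control included, nor the strain, sex and age of the mice or the time of sampling. The labels also do not say that the 3 replicates of a group are separate animals, so p-values measure the spread between these libraries, which may be technical.

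Aqp4, the main water channel of the brain, is packed into the endfoot membrane that faces the vessel. It is held there by a complex in which dystrophin and dystrobrevin inside the cell join dystroglycan in the membrane, and dystroglycan binds laminin and agrin of the basement membrane outside. The inward rectifier Kcnj10 takes up potassium released by active neurons. The connexins Gja1 and Gjb6 form the gap junctions that couple astrocytes to each other, and Mlc1 with its adhesion partner Hepacam forms a complex at astrocyte junctions that takes part in the control of cell volume.

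The libraries held the genes of several brain cell types. The summed level of 10 general astrocyte markers ran from 500.2 to 522.6 FPKM (fragments per kilobase of transcript, scaled to the mapped fragments of the library) in control, from 683.6 to 727.3 in experimental and from 713.0 to 754.5 in intervention libraries. The sum of 8 neuronal markers ran from 974.3 to 1026 FPKM in control, from 624.9 to 698.1 in experimental and from 715.4 to 747.6 in intervention libraries. The sum of 8 endothelial markers ran from 91.1 to 97.0, from 178.3 to 204.5 and from 151.4 to 165.4 FPKM in the same order. Larger relative shifts were seen in the sums of 3 further lists. The sum of 6 reactive astrocyte markers, Gfap and Vim among them, ran from 48.7 to 66.4 FPKM in control, from 638.9 to 1064 in experimental and from 508.5 to 782.6 in intervention libraries. That of 8 microglia and macrophage markers ran from 77.2 to 87.5, from 423.7 to 504.4 and from 320.6 to 438.2 FPKM, and that of 6 meningeal fibroblast markers from 31.1 to 38.0, from 114.0 to 124.5 and from 88.4 to 122.1 FPKM. Most of the fibroblast sum was 1 gene, Igfbp2, with means of 24.6, 103.1 and 88.4 FPKM in the same order. The shift of this sum is therefore mainly that of Igfbp2. All 6 reactive astrocyte and all 8 microglia and macrophage markers rose in both comparisons with control, and of the 6 fibroblast markers 5 rose in experimental and 3 in intervention against control. These counts are at an adjusted p under 0.05 in limma. Over all 14570 genes tested, 19.9% rose in experimental and 16.9% in intervention against control. Sums of mural cell and oligodendrocyte precursor markers were also higher than in control without overlap in both groups, while those of ependyma and choroid plexus overlapped. Most of this last sum was Ttr, with means of 658.1, 589.4 and 538.6 FPKM in control, experimental and intervention libraries. Of the 8 markers of that list 1, Rarres2, rose in both comparisons with control (adjusted p = 0.00383 and 0.00409 in limma). No marker of these lists was at 0 in all 9 libraries. In bulk tissue, more cells of a type and more RNA per cell cannot be told apart, and the part of these shifts in the values below was not tested.

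In control tissue, Mlc1 had the highest level of the 9 genes, 56.2 ± 1.26 FPKM (mean ± SD, n = 3 here and below), followed by Kcnj10 with 40.3 ± 3.09, Hepacam with 26.9 ± 1.36 and Aqp4 with 21.6 ± 3.24 FPKM. The 2 connexins had close levels, 17.0 ± 1.6 FPKM for Gjb6 and 16.0 ± 0.66 FPKM for Gja1. Dag1 followed with 14.8 ± 0.601 FPKM, and the scaffold genes Dtna with 7.05 ± 1.47 and Dmd with 1.32 ± 0.222 FPKM were lowest. FPKM is scaled by length, so these levels can be set against each other. Neighbours in this order did not overlap between libraries, except Aqp4 with Gjb6, Gjb6 with Gja1 and Gja1 with Dag1. In the experimental group Aqp4 stood beside Kcnj10, with overlapping libraries, at 56.1 ± 12.3 against 58.7 ± 2.16 FPKM.

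**Figure D1:**
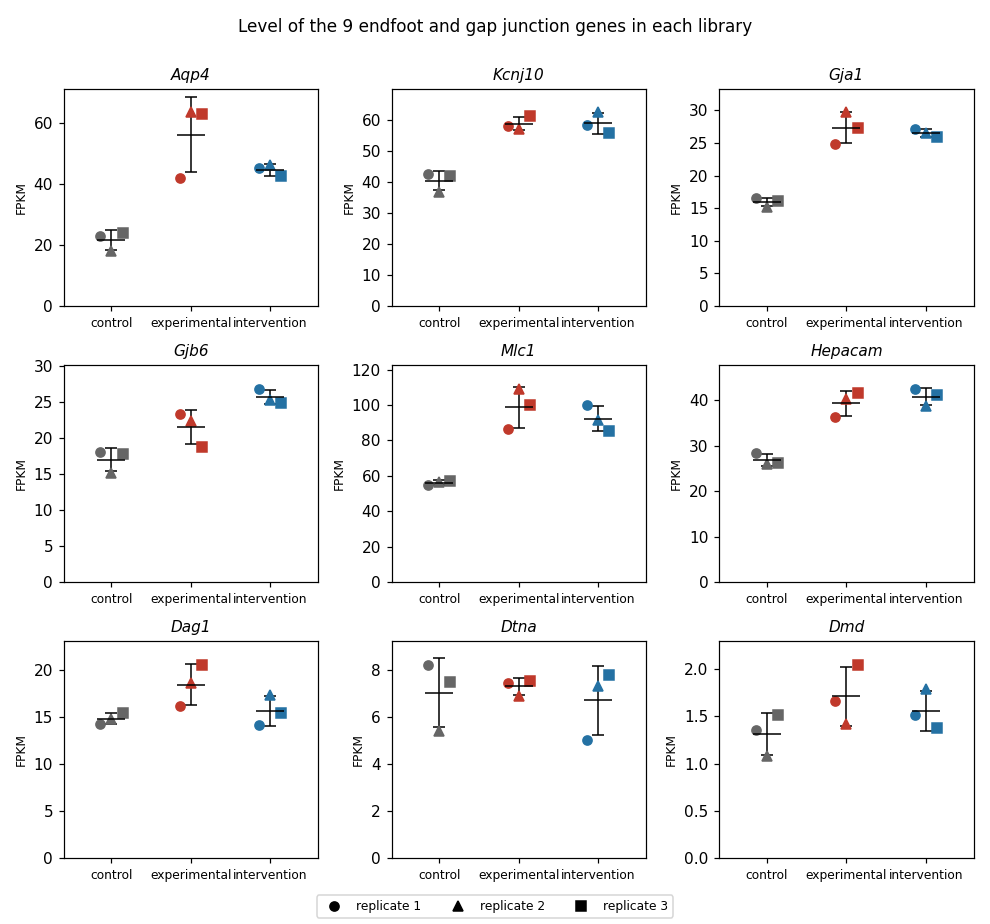
FPKM (vertical axes, from 0) of the 9 genes in each of the 9 libraries, by group; marker shapes give the replicate number, the short bar is the group mean and the error bar the SD over 3 libraries. Aqp4, Kcnj10, Gja1, Gjb6, Mlc1 and Hepacam have every control library below every experimental and intervention library, while the groups of Dtna and Dmd overlap.

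Experimental and control libraries were set against each other first, to find the genes that differ between these groups as labelled. The channel and junction genes rose, with the largest change for Aqp4 at 2.51-fold, while Dtna and Dmd, which lie inside the cell in the scaffold, did not pass the test. In all, 7 of the 9 genes rose and 0 fell at an adjusted p under 0.05 in limma. Over all 14570 genes tested, 19.9% rose and 17.3% fell, and 37.2% passed in either direction. The libraries of the 7 genes that rose did not overlap, where 25.7% of all genes were higher without overlap. The median log2 fold change of the 9 genes, on the scale of log2(FPKM + 1) used for all fold changes, was 0.53, against -0.03 over all genes tested. All 9 passed the filter on low values.

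Aqp4 was at 22.9, 17.9 and 23.9 FPKM in the control libraries, at 41.8, 63.4 and 63.0 FPKM in the experimental libraries and at 45.3, 46.1 and 42.4 FPKM in the intervention libraries. Experimental replicate 1 was lower than the other 2 libraries of its group and just below the intervention libraries, and every control library lay below all others. The difference between experimental and control was 1.33 ± 0.16 on the log2 scale (estimate ± SE, adjusted p = 0.000197), and with 1 library left out it ran from 1.20 to 1.52. Aqp4 lies on chromosome 18 at 15389496 to 15410982 (mm10, minus strand, ENSMUSG00000024411.10).

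Kcnj10 was at 42.3, 36.8 and 41.9 FPKM in control, 57.8, 57.0 and 61.1 FPKM in experimental and 58.1, 62.3 and 55.8 FPKM in intervention libraries. The experimental and intervention libraries of this potassium channel interleaved, and both groups lay above all control libraries. Its log2 fold change was 0.53 ± 0.08 in experimental against control (1.45-fold, adjusted p = 0.000678). Kcnj10 lies on chromosome 1 at 172341210 to 172374085 (mm10, plus strand, ENSMUSG00000044708.5).

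The balance of these channels of the endfoot membrane was read as the ratio of Kcnj10 to Aqp4 in FPKM, which was 1.88 in control, 1.06 in experimental and 1.32 in intervention libraries (geometric means). The log2 ratio was 0.89, 1.04 and 0.81 in the control libraries, 0.47, -0.15 and -0.04 in the experimental and 0.36, 0.43 and 0.39 in the intervention libraries. All control libraries lay above the others, and the intervention libraries fell inside the range of the experimental libraries. The exact permutation test (two-sided) gave p = 0.1 for experimental against control and for intervention against control, the smallest that 3 libraries against 3 allow, and p = 0.4 for intervention against experimental (0.171, 0.171 and 0.436 after Benjamini-Hochberg adjustment over 12 comparisons of 4 ratios).

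The connexin Gja1, the more widely expressed gap junction protein of the pair, was at 16.5, 15.2 and 16.2 FPKM in control, 24.9, 29.7 and 27.4 FPKM in experimental and 27.1, 26.6 and 26.0 FPKM in intervention libraries. The experimental and intervention libraries lay above control without overlap and overlapped each other. Gja1 rose by 0.74 ± 0.08 on the log2 scale in experimental against control (1.67-fold, adjusted p = 6.75e-05), the smallest p of the 9 genes. It lies on chromosome 10 at 56377330 to 56402513 (mm10, plus strand, ENSMUSG00000050953.10).

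Its partner Gjb6, in the brain a connexin of astrocytes, was at 18.1, 15.2 and 17.8 FPKM in control, 23.4, 22.4 and 18.8 FPKM in experimental and 26.9, 25.4 and 25.0 FPKM in intervention libraries. The 3 groups followed each other without overlap, from control to experimental to intervention. Gjb6 rose by 0.32 ± 0.10 on the log2 scale in experimental against control (1.25-fold, adjusted p = 0.0281). The gene no longer passed when control 2, experimental 1 or experimental 2 was left out (adjusted p up to 0.101), with no filter on low genes (0.0591) and after rescaling to TPM, which gives every library the same total (log2 fold change 0.17, adjusted p = 0.139). Gjb6 lies on chromosome 14 at 57123303 to 57133611 (mm10, minus strand, ENSMUSG00000040055.9).

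The balance of the 2 connexins was read in the same way. The log2 ratio of Gja1 to Gjb6 was -0.13, 0.0034 and -0.14 in control, 0.09, 0.41 and 0.54 in experimental and 0.01, 0.07 and 0.06 in intervention libraries. The experimental libraries lay above all others, and the intervention libraries above control. As a linear ratio this was 0.94 Gja1 per Gjb6 in control, 1.27 in experimental and 1.03 in intervention. The exact permutation test gave the smallest p it can, 0.1, in each of the 3 comparisons (0.171 adjusted over the 12), so none passed a threshold of 0.05.

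**Figure D2:**
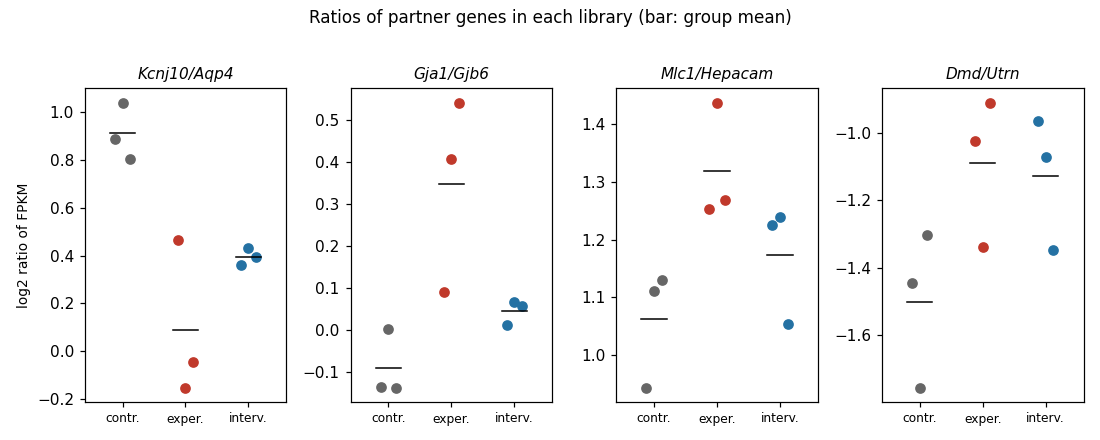
Log2 ratio of FPKM of 4 gene pairs in each library (points, by group; bars are group means; each panel has its own vertical scale, which does not start at 0). Kcnj10/Aqp4 is highest in control, with a mean of 0.91, and Gja1/Gjb6 highest in experimental libraries, with a mean of 0.35.

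The stretches upstream of the 2 connexin genes and of Kcnj10 are shown because the ratios above turn on these genes. Mlc1 and Hepacam, which also rose in both groups against control, had a promoter entry too, as had Dag1 and Dmd, and their motif counts are given below. The windows are the 250 bases before the transcript start in RefSeq (GRCm38.p6), where 7 of the 9 genes had a promoter entry, at chr10:56377050-56377299 on the plus strand for Gja1, chr14:57133612-57133861 on the minus strand for Gjb6 and chr1:172340960-172341209 on the plus strand for Kcnj10. Capitals mark matches on either strand to TGACTCA, the AP-1 element, to CCAAT, or to GGGCGG, the GC box.
Gja1: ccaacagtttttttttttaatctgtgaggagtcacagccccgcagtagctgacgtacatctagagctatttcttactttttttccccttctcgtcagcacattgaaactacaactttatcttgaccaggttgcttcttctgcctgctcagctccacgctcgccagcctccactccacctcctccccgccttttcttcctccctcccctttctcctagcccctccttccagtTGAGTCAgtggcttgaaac
Gjb6: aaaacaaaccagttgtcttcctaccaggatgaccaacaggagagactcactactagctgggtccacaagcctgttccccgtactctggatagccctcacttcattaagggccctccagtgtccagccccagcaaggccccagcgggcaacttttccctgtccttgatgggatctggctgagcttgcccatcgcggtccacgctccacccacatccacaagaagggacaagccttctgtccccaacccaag
Kcnj10: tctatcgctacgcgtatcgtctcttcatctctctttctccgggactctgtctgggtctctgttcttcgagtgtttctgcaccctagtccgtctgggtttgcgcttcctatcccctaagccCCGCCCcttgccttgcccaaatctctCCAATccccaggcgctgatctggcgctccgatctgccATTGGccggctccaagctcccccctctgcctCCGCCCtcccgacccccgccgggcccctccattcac

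The Gja1 window held TGACTCA 1 time, a match found in 4.46% of 32851 promoter windows of the same length. The Kcnj10 window held CCAAT 2 times and GGGCGG 2 times, which occur in 33.8% and 32.7% of windows. The Gjb6 window held none of the motifs searched. Of the windows not printed, that of Mlc1 held CCAAT 1 time and that of Hepacam TTGGCA 1 time, and neither held another of the motifs. Dmd and Dag1 had 2 windows each. The first of Dmd, a gene that passed no test, held TGACTCA and TATAAA 1 time each, and the second TTGGCA 1 time and GGGCGG 3 times. Those of Dag1 held CCAAT 1 and 2 times and GGGCGG 3 times each. Also searched on both strands, without a match in the 3 printed windows, were TTCCNGGAA (0.913% of windows), TTGGCA (12.3%), TATAAA (12.4%), CACGTG (6.02%) and ACAATGG (3.02%). TTGGCA and CCAAT read on the other strand can overlap each other. The share of G and C was 50% for Gja1, 56.8% for Gjb6 and 62% for Kcnj10, against a median of 52.4% over all windows.

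Mlc1, a membrane protein whose loss causes a leukodystrophy with brain swelling in humans, was at 54.8, 56.3 and 57.3 FPKM in control, 86.6, 109.2 and 100.1 FPKM in experimental and 99.7, 91.7 and 85.4 FPKM in intervention libraries. Both groups lay above control and overlapped each other. Its log2 fold change was 0.80 ± 0.10 in experimental against control (1.74-fold, adjusted p = 0.000177). Mlc1 lies on chromosome 15 at 88955884 to 88979007 (mm10, minus strand, ENSMUSG00000035805.13).

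Hepacam, the adhesion protein that brings Mlc1 to astrocyte junctions, was at 28.5, 26.1 and 26.2 FPKM in control, 36.3, 40.4 and 41.6 FPKM in experimental and 42.6, 38.8 and 41.1 FPKM in intervention libraries. As for Mlc1, control lay apart and the other groups overlapped. Hepacam rose by 0.53 ± 0.08 on the log2 scale (1.45-fold, adjusted p = 0.00057). The linear ratio of Mlc1 to Hepacam was 2.09 in control, 2.50 in experimental and 2.26 in intervention libraries. The experimental libraries of this ratio lay above both other groups (exact permutation p = 0.1 for each, 0.171 adjusted), and intervention and control overlapped (exact permutation p = 0.3, 0.36 adjusted). Hepacam lies on chromosome 9 at 37367351 to 37386575 (mm10, plus strand, ENSMUSG00000046240.8).

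Among the scaffold genes, Dag1, which encodes both subunits of dystroglycan, was at 14.2, 14.7 and 15.4 FPKM in control, 16.2, 18.6 and 20.5 FPKM in experimental and 14.1, 17.3 and 15.4 FPKM in intervention libraries. The experimental libraries lay above control, and the intervention libraries overlapped both groups. Dag1 rose by 0.29 ± 0.10 on the log2 scale in experimental against control (1.23-fold, adjusted p = 0.0432). Dag1 no longer passed in 6 of 9 fits that each lacked 1 library, namely control 1, 2 or 3, experimental 2 or 3, or intervention 3 (adjusted p up to 0.143), with no filter (0.0890) and after rescaling to TPM (log2 fold change 0.15, adjusted p = 0.356). Dag1 lies on chromosome 9 at 108204634 to 108263958 (mm10, minus strand, ENSMUSG00000039952.15).

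Dtna, the dystrobrevin of the astrocyte complex, was at 8.24, 5.41 and 7.51 FPKM in control, 7.48, 6.91 and 7.55 FPKM in experimental and 5.03, 7.34 and 7.80 FPKM in intervention libraries. Control 2 and intervention 1 were the lowest libraries, and the groups overlapped in every comparison. The log2 fold change in experimental against control was 0.06 with a 95% interval from -0.30 to 0.43 (adjusted p = 0.791), and it was -0.09 after rescaling to TPM. Dtna lies on chromosome 18 at 23415135 to 23659715 (mm10, plus strand, ENSMUSG00000024302.16).

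Dmd, the dystrophin gene, whose short products are those of glia while longer ones are made in neurons and muscle, was at 1.36, 1.08 and 1.51 FPKM in control, 1.66, 1.42 and 2.05 FPKM in experimental and 1.51, 1.79 and 1.37 FPKM in intervention libraries. The groups overlapped, and the log2 fold change in experimental against control was 0.23 with an interval from -0.03 to 0.49 (adjusted p = 0.155). The deposited values are 1 per gene, so that the products of Dmd, with 14 annotated transcripts, were not resolved. The sum of 6 skeletal muscle markers was between 2.79 and 4.59 FPKM over the 9 libraries. Dmd lies on chromosome X at 82948870 to 85206141 (mm10, plus strand, ENSMUSG00000045103.17). Utrn, the autosomal relative of Dmd that is also made in endfeet and vessels, was at 3.69 ± 0.0479, 3.61 ± 0.234 and 3.40 ± 0.41 FPKM in control, experimental and intervention libraries. The ratio of Dmd to Utrn was 0.353 in control, 0.470 in experimental and 0.458 in intervention libraries, with overlapping groups (exact permutation p = 0.2, 0.7 and 0.2 for the 3 comparisons, 0.267, 0.7 and 0.267 adjusted).

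The next comparison, of intervention with experimental libraries, asks whether these genes differ with the intervention. None of the 9 genes passed in limma, and 0 of all 14570 genes did (0% called, with 9.28% at an unadjusted p under 0.05). The gene nearest to a difference was Gjb6, which was higher in the intervention libraries by 0.25 ± 0.10 on the log2 scale (1.19-fold, 95% interval 0.03 to 0.47, unadjusted p = 0.0277, adjusted p = 0.431). It was the single gene of the 9 whose intervention and experimental libraries did not overlap, where 5.07% of all genes were higher and 8.16% lower without overlap. Dag1 had an estimate of -0.22 ± 0.10 (unadjusted p = 0.0499, adjusted p = 0.538) and Aqp4 one of -0.30 ± 0.16 (interval -0.66 to 0.06, adjusted p = 0.665). For Kcnj10 the estimate was 0.0014 with an interval from -0.18 to 0.18, and for Gja1 -0.04 with an interval from -0.21 to 0.14. The estimates of Mlc1, Hepacam, Dmd and Dtna were -0.09, 0.05, -0.08 and -0.12, with intervals that included 0. These intervals are the sizes of change that the data leave possible, since a p above the threshold does not show equal levels.

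Intervention libraries were then set against control libraries. Of the 9 genes 6 rose and 0 fell, where 16.9% of all genes rose, 11.4% fell and 28.3% passed in either direction. The libraries of these 6 genes did not overlap, as for 23.5% of all genes. Aqp4 rose by 1.03 ± 0.16 on the log2 scale (2.04-fold, adjusted p = 0.00158), Mlc1 by 0.70 ± 0.10 (adjusted p = 0.000648) and Gja1 by 0.70 ± 0.08 (adjusted p = 0.000167). Hepacam rose by 0.58 ± 0.08 (adjusted p = 0.00052), Gjb6 by 0.57 ± 0.10 (adjusted p = 0.0025) and Kcnj10 by 0.53 ± 0.08 (adjusted p = 0.00109). These 6 calls held in each of the 9 fits that lacked 1 library and in each other setting tried. The scaffold genes did not pass, with log2 fold changes of 0.07 for Dag1 (adjusted p = 0.631), -0.06 for Dtna (0.804) and 0.14 for Dmd (0.381). Both this comparison and that of experimental against control use the same 3 control libraries. For Gjb6 the value against control was 0.57 for intervention and 0.32 for experimental libraries, and for Dag1 it was 0.07 and 0.29.

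**Figure D3:**
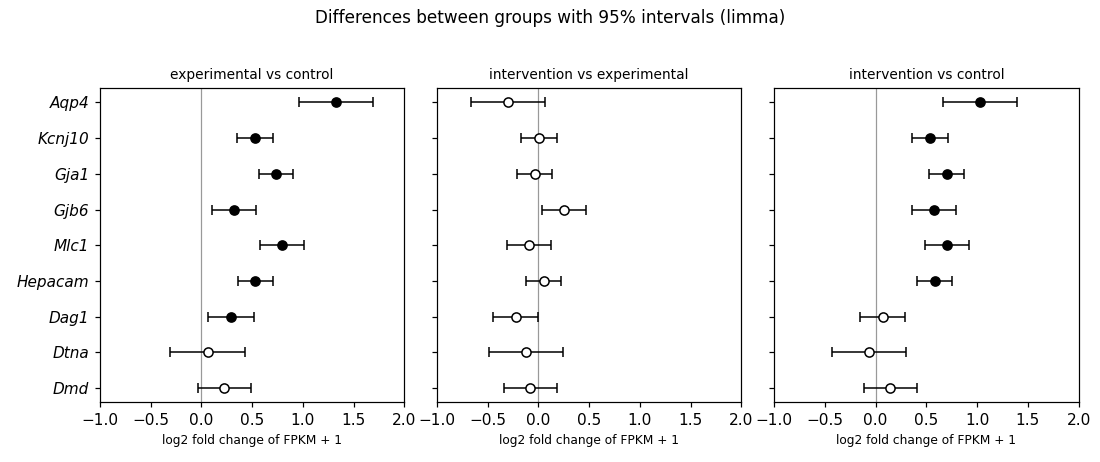
Log2 fold change of FPKM + 1 (horizontal axes) of the 9 genes in the 3 comparisons, with 95% intervals from limma; filled points have an adjusted p under 0.05. The 6 channel and junction genes are filled in both comparisons with control, Dag1 in experimental against control, and no point is filled in intervention against experimental.

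To see how far each gene moved with astrocyte genes in general, its log2 level was set against the mean log2 level of 10 astrocyte markers in the same library. These markers were Aldh1l1, Aldoc, Sox9, S100b, Slc1a2, Slc1a3, Fgfr3, Acsbg1, Gpc5 and Slc4a4. Their mean was 4.81 ± 0.0141 in control, 5.36 ± 0.0947 in experimental and 5.36 ± 0.00188 in intervention libraries, and 7 of the 10 rose in experimental against control and 8 of the 10 in intervention against control. Of all genes tested, 19.9% and 16.9% rose in these comparisons.

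Aqp4 had the largest upward shift of the 9 genes against this reference. Its difference from the reference was -0.32 ± 0.225 in control, 0.45 ± 0.244 in experimental and 0.15 ± 0.0641 in intervention libraries, so that the shift against control was 0.77 for experimental and 0.47 for intervention libraries. Mlc1 shifted by 0.25 and 0.15 and Gja1 by 0.19 and 0.15 in the same order. For these 3 genes both groups lay above control without overlap, which 7.23% of all genes did in experimental against control and 4.61% in intervention against control. The log2 fold changes of the single markers ran from 0.0053 to 1.21 in experimental and from 0.17 to 1.07 in intervention against control. Those of Mlc1 and Gja1 lay within both ranges. That of Aqp4 lay above the range in experimental and within it in intervention against control. Kcnj10 shifted by -0.02 in both and Hepacam by -0.02 and 0.03, with overlapping libraries, so that both moved close to the mean of the astrocyte markers.

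Gjb6 shifted by -0.23 for experimental and 0.02 for intervention libraries, with overlapping libraries in both. The scaffold genes lay below control relative to the reference, by -0.26 and -0.48 for Dag1, -0.49 and -0.62 for Dtna and -0.32 and -0.41 for Dmd, without overlap. This was also the case for 76.1% and 77.7% of all genes, whose median shift was -0.58 and -0.56, since the reference itself rose. The exact permutation test gave p = 0.1, its smallest, wherever groups did not overlap (0.208 adjusted over 27 comparisons). With 0.1 in place of 1 added before the log, Dmd overlapped control in both groups. Its shift was then -0.22 in experimental and -0.35 in intervention libraries (exact permutation p = 0.4 and 0.2). Dtna in experimental and Mlc1 in intervention libraries then overlapped control too (exact permutation p = 0.2 for each).

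**Figure D4:**
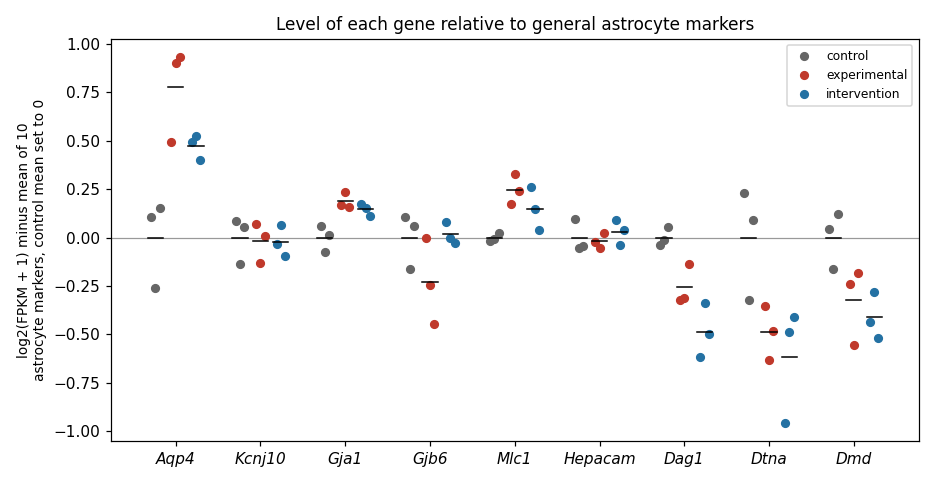
Log2(FPKM + 1) of each gene minus the mean of 10 astrocyte markers in the same library (vertical axis, with the control mean of each gene set to 0); points are libraries and bars group means. Aqp4 lies 0.77 above control in the experimental group, Kcnj10 and Hepacam stay near 0, and Dag1, Dtna and Dmd lie below 0 in both groups.

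The other genes of the same systems were counted in 3 lists. Of 15 further genes of water, potassium and volume regulation, 14 were tested, and 4 rose and 2 fell in experimental against control (median log2 fold change 0.12), where 19.9% of all genes rose and 17.3% fell. Gpr37l1, an astrocyte receptor, rose from 72.1 ± 1.42 to 150.8 ± 6.91 FPKM (adjusted p = 1.59e-05), and Kcnj16, a potassium channel subunit that assembles with Kcnj10, rose by 0.99 on the log2 scale (adjusted p = 0.00149). Atp1b2, a sodium pump subunit of astrocytes, rose by 0.55 (adjusted p = 0.00582). Atp1b1, the pump subunit most abundant in neurons, fell from 505.3 ± 24.9 to 319.2 ± 18.3 FPKM (adjusted p = 0.000148), and Abcc8, a potassium channel regulator, also fell (-0.50, adjusted p = 0.0439). The chloride channel Clcn2, a partner of Hepacam, was at 8.52 ± 0.851 and 9.25 ± 1.77 FPKM (adjusted p = 0.552). Aqp9 lay under the filter, with a mean of 0.243 ± 0.0422 FPKM in control libraries and of 0.543 ± 0.0714 FPKM in the experimental group, and Aqp1 had an adjusted p of 0.809.

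Of 12 other connexin, pannexin and junction scaffold genes, 11 were tested, and 3 rose and 2 fell (median 0.15), counts near those shares of all genes. The junction scaffold gene Tjp1 rose by 0.61 (adjusted p = 0.00141), and the connexin Gjc1 by 0.25 (adjusted p = 0.0409). Gjd2, the connexin of neuronal gap junctions, fell by 0.64 on the log2 scale (adjusted p = 0.00139), and Panx2, a pannexin, by 0.34 (adjusted p = 0.0438). Gjb1, a connexin of oligodendrocytes, had a log2 fold change of 0.07 (adjusted p = 0.768). Gjb2, another connexin, was at 3.05 ± 0.458 and 3.68 ± 0.593 FPKM (adjusted p = 0.305).

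Of 27 partners of the dystrophin complex and the vascular basement membrane, 24 were tested, and 12 rose and 2 fell (median 0.25). Over all genes tested, 19.9% rose and 17.3% fell. The basement membrane genes had the largest changes, led by Col4a1, whose mean was 3.85 ± 0.402 FPKM in control and 16.0 ± 1.92 FPKM in the experimental group (log2 fold change 1.81, adjusted p = 1.65e-06). Col4a2, Nid1, Nid2, Hspg2, Lama4, Lama5, Lamb2 and Lamc1 also rose, by 0.39 (Lama5) to 1.24 (Col4a2). These genes are made by vascular cells as well as by astrocytes, and the endothelial sums given above moved the same way. The part of either cell type in these changes was not tested. Agrn, whose product in the basement membrane binds dystroglycan, had a log2 fold change of 0.15 (adjusted p = 0.172). Of the other members of the complex, Sspn, which encodes sarcospan, rose by 0.30 (adjusted p = 0.0252). Dtnb, a dystrobrevin found in neurons, fell by 0.29 on the log2 scale (adjusted p = 0.0283). Pomt1, an enzyme that starts the laminin-binding sugar chain on dystroglycan, rose by 0.39 (adjusted p = 0.0264).

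In intervention against control, 4 genes rose and 1 fell of the water, potassium and volume list, 1 rose and 2 fell of the connexin list and 11 rose and 2 fell of the dystrophin and basement membrane list, where 16.9% of all genes rose and 11.4% fell. In intervention against experimental, 0 genes of these lists passed. The lowest adjusted p of these lists was that of Col4a1, with means of 16.0 ± 1.92 and 10.3 ± 0.942 FPKM in the experimental and the intervention group (log2 fold change -0.58, adjusted p = 0.0845).

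**Figure D5:**
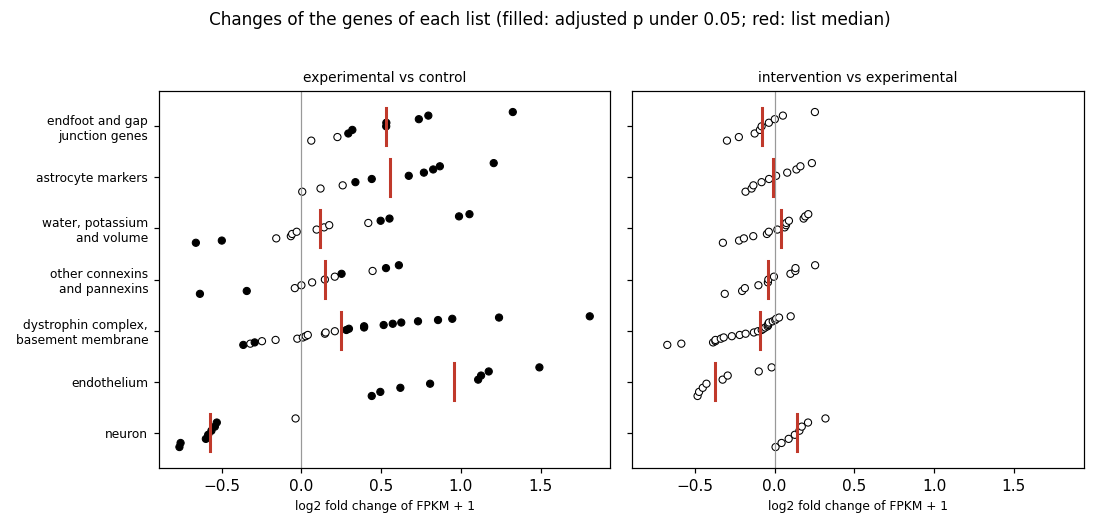
Log2 fold changes (horizontal axes) of the tested genes of 7 lists in experimental against control (left) and intervention against experimental (right); each point is a gene, filled where the adjusted p is under 0.05, and the red bar is the list median. The median of the endfoot and gap junction genes is 0.53 on the left and -0.08 on the right, and no point is filled on the right.

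The genes whose course over the 9 libraries was most like that of 3 of the genes were found by the root mean square difference of log2(FPKM + 1), each gene centred on its control mean, among 12628 genes. Nearest to Gja1 were Serhl, Acsbg1, Spsb2 and Ccdc190, with differences of 0.0480 to 0.0651. Acsbg1, one of the astrocyte markers, went from 37.8 FPKM in control to 65.2 in experimental and 65.5 in intervention libraries. Nearest to Kcnj10 were Itpr2, a calcium release channel prominent in astrocytes, Rin2, Akr1b10 and Osbpl11 (0.0552 to 0.0677). Nearest to Aqp4, at a larger distance of 0.121 to 0.139, were Jpt2, the cell cycle transcription factor Foxm1, Arhgap11a and Angptl4. These 4 genes had control means between 0.336 and 1.42 FPKM, well below that of Aqp4. In FPKM the mean of Foxm1 went from 0.336 in control to 2.59 in experimental libraries, and that of Aqp4 from 21.6 to 56.1. Adding 1 before the log shrinks the changes of such low genes, so these courses were alike on that scale and not in FPKM. The same limit applies to Serhl and Spsb2 beside Gja1. Their means in control and experimental libraries were 0.524 and 1.63 FPKM for Serhl and 1.47 and 3.12 FPKM for Spsb2. Itpr2 beside Kcnj10 has this limit too, with means of 1.18 and 2.13 FPKM. Rin2, Akr1b10 and Osbpl11, with control means from 2.40 to 4.18 FPKM, have it to a lesser degree.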

How the data were processed

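The authors deposited FPKM values, as the column names state, and no counts. The build was mm10, per the submitters' processing notes, with aligner, counter and annotation not given in the sources used here. RNA came from an RNeasy kit and libraries from a SMARTer mRNA kit, per the labels' protocols. In genes with 1 annotated transcript, the most frequent product of FPKM and length was 50.2 to 64.4; if it marks 1 fragment, depths lie within 1.28-fold. Only 12.7% to 15.9% of low values were whole multiples of 0.5 of that step (tolerance 0.02), so no count test was run, and no counting interval is given.

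Genes with at least 1 FPKM in 3 or more libraries (14570) were tested with limma 3.58.1 in R 4.3.3 on log2(FPKM + 1), with an intensity trend and 1 mean per group over 9 libraries (6 residual and 3.53 prior degrees of freedom), two-sided, with Benjamini-Hochberg adjustment over all genes and a threshold of 0.05. The fit was tested on simulated data. Fold changes understate those of low genes. Ratios used Python 3.11.15 and exact permutation tests. Gene positions are from GENCODE M21. The text names the 9 genes, the called or partner genes of the 3 lists, and for Aqp4, Gja1 and Kcnj10 the 4 genes nearest in course. The genes and lists were chosen with earlier results of these data known. Alternatives were other pseudocounts, filters, scalings (TPM, quantile), variance models, a replicate block and leaving out each library. A few genes counted in the lists are not reported here by name.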

Additional observations from a re-analysis of the deposited data

How the results depend on the processing

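Rescaling to TPM moved the median log2 fold change of all genes from -0.03 to -0.18 in experimental against control and from -0.0035 to -0.15 in intervention against control. The number of the 9 genes called higher ran from 5 to 7 in experimental against control under the settings tried and with 1 library left out, was 6 throughout in intervention against control and 0 in intervention against experimental. Signs turned only for values that passed no test. Rescaled to TPM these were Dtna in experimental against control (-0.0856) and Dag1 in intervention against control (-0.0756). With quantile normalization they were Kcnj10 (-0.0176) and Hepacam (-0.0019) in intervention against experimental and Dmd in intervention against control (-0.0099). With 1 library left out, Dtna ran from -0.0943 to 0.17 in experimental against control, from -0.23 to 0.0441 in intervention against experimental and from -0.22 to 0.11 in intervention against control. In intervention against experimental, Dmd ran from -0.16 to 0.0062, Kcnj10 from -0.0408 to 0.0369, Gja1 from -0.0983 to 0.0235 and Hepacam from -0.0043 to 0.0905, and in intervention against control Dag1 from -0.0016 to 0.14. The log2 ratio of Dmd to Utrn ran from -0.16 to 0.0736 in intervention against experimental. Against the astrocyte reference, Dtna ran from -0.23 to 0.0399 in intervention against experimental, and Kcnj10 from -0.0882 to 0.0369, from -0.0588 to 0.0403 and from -0.0914 to 0.0215 in experimental against control, intervention against experimental and intervention against control. Hepacam ran from -0.0449 to 0.0300 in experimental against control and from -0.00062 to 0.0774 in intervention against control, and Gjb6 from -0.0642 to 0.0693 in intervention against control. Over all genes, intervention against experimental had 0 calls, 35 with quantile normalization, 8 without the intensity trend and 0 to 1 with 1 library left out. Intervention against control had 4120 calls and from 2668 (without intervention 1) to 3913 with 1 library left out. The cause was not tested.

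The labels do not say whether replicate numbers pair the libraries. Libraries with the same number deviated from their group means with correlations from -0.54 to 0.21 over genes, and those with different numbers from -0.53 to 0.49. Deviations within a group sum to 0, so these correlations cannot settle whether libraries were paired. With the replicate block, 7 of the 9 genes rose in experimental against control, 6 in intervention against control and 0 changed in intervention against experimental, and the calls over all genes were 4702, 3251 and 0 against 5415, 4120 and 0. The block changed no call of the 9 genes. The depth of the libraries is known only relative to each other, and it limits Dmd and other low genes more than the abundant channel genes.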
